A study of Homo sapiens with 20 samples.

Results

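The type I interferon-stimulated genes described here are 46 genes whose transcription rises when cells receive interferon alpha or beta. They were taken by symbol from a list of 47 gene symbols. The reads of 1 of these, AL136295.5, were added to IRF9, because both lie on the same stretch of the genome. The 46 genes stand among 60656 rows of a gene count table. All 46 were among the 24789 rows tested, so none was lost to the filter on low counts.

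RNA-seq was done on 20 samples of SW1990, a long-established line of human pancreatic carcinoma cells, studied as a pancreatic cancer model in mice. Each sample had 1 of 4 treatments from traditional Chinese medicine, 5 samples per treatment. Heat-clearing stands for "clearing Heat and removing Dampness" in the labels. The name spleen-strengthening stands for "strengthening spleen and regulating qi-flowing", yin-nourishing for "eliminating heat by nourishing yin" and blood-activating for "activating blood and removing stasis". All 20 samples carry the same cell line. The labels state no genotype, dose, duration, herb or mouse age, and none of the 20 is labelled untreated, so each value sets treatments against one another. Whether the 5 samples of a treatment came from separate animals is not stated, so p-values measure only the spread between these samples, which may be technical. Libraries held 81.7 to 135 M counts (M stands for mega), deep enough that the lowest raw count of any of the 46 genes in any library was 34, for HERC5.

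Interferon alpha and beta bind a shared receptor on the cell surface, whose kinases JAK1 and TYK2 phosphorylate STAT2. Bound to IRF9, STAT2 is part of a complex that enters the nucleus and binds the interferon-stimulated response element (ISRE), a short DNA motif in front of its target genes. The induced proteins sense viral RNA, block viral translation, trafficking and budding, attach the ubiquitin-like protein ISG15 to other proteins, or feed back on the pathway. Tumour cells often keep a standing level of these transcripts without infection.

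The ISRE, the motif bound by the complex that holds STAT2 and IRF9, is shown for 12 of these genes, where binding was not measured. It was searched as GAAA, any 2 bases and GAAA, which reads TTTC, any 2 bases and TTTC on the other strand, in RefSeq promoters (build GRCh38.p14) running 250 bases before to 50 bases after each gene start. Capitals mark 1 match per gene, and each window of up to 30 bases is read on the strand of its gene.
ISG15: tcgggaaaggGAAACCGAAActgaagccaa
BST2: ctgggaaactGAAACTGAAAacctaattaa
IFI27: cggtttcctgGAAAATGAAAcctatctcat
IFI6: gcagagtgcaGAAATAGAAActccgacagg
IFIT1: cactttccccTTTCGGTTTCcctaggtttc
IFIT3: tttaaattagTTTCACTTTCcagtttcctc
OAS3: agccgggcggGAAAACGAAAcc
IFIH1: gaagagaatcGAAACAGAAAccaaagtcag
IFI44: gcacactgagTTTCAGTTTCctttctct
IFITM1: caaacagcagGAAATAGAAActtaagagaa
SAMD9: tctgagaaatGAAACTGAAAccaaacctat
LGALS3BP: gtggtttctgGAAATCGAAAgtagactctt
These windows lie at chr1:1013380-1013409 (plus strand) for ISG15, chr19:17405735-17405764 (minus) for BST2, chr14:94110631-94110660 (plus) for IFI27 and chr1:27672266-27672295 (minus) for IFI6. Those of the IFIT family lie at chr10:89392510-89392539 for IFIT1 and chr10:89327865-89327894 for IFIT3, both on the plus strand. The others lie at chr12:112938452-112938473 (plus) for OAS3, chr2:162318686-162318715 (minus) for IFIH1, chr1:78649761-78649788 (plus) for IFI44, chr11:313990-314019 (plus) for IFITM1, chr7:93118096-93118125 (minus) for SAMD9 and chr17:78979962-78979991 (minus) for LGALS3BP. SAMD9, IFI44 and LGALS3BP held 1 match, IFIH1 and IFI6 held 3 and the other 7 genes held 2. In the windows of ISG15 and BST2 a second match overlaps the capitals and is left in lower case in part. The capitalised match begins 107 bases upstream of the start for ISG15, 124 for BST2, 95 for IFI27 and 12 for OAS3.

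Of the 46 genes, 38 had a RefSeq promoter and 23 of these (60.5%) held the ISRE letters, against 1248 of 34943 promoters in all (3.57%). Without a promoter entry were DHX58, IFIT2, IRF7, MX2, OAS2, OASL, TRIM22 and USP18. The GAS letters TTC, any 3 bases and GAA were in 10 of 38 (26.3%), against 7.66% of all promoters. A match describes these letters in this window only. The 15 with a promoter and no ISRE match were CMPK2, DDX58, HERC6, IFI35, IRF1, IRF9, OAS1, PARP9, RSAD2, SAMD9L, SP110, STAT2, TRIM25, UBE2L6 and XAF1.

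Transcripts of all 46 genes, in 10 functional classes, were present in every library. Set per kilobase of principal transcript (GENCODE release 29, normalised counts per M counts and kilobase), LGALS3BP, a secreted galectin-binding glycoprotein, stood highest at 297 ± 30.1 (SD, n = 20 libraries). IFI27, a small membrane protein of mitochondria and endoplasmic reticulum, followed at 128 ± 61.4 per kilobase. IFITM1, which hinders fusion of viral with cell membranes, was at 125 ± 39.0 per kilobase, and SAMD9, a cytoplasmic antiviral protein, at 117 ± 19.2 per kilobase. The levels of IFI27, IFITM1 and SAMD9 lay closer to one another than their SD. PARP9, a partner of the ubiquitin ligase DTX3L, was at 78.9 ± 19.0 per kilobase and IFI6, an interferon-induced survival protein, at 73.4 ± 21.5 per kilobase, which also lay within their SD of each other. At the low end were DHX58, a helper of the RNA sensors, at 1.06 ± 0.332 per kilobase and HERC5, the ligase that attaches ISG15 in human cells, at 0.361 ± 0.212 per kilobase.

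**Figure D1:**
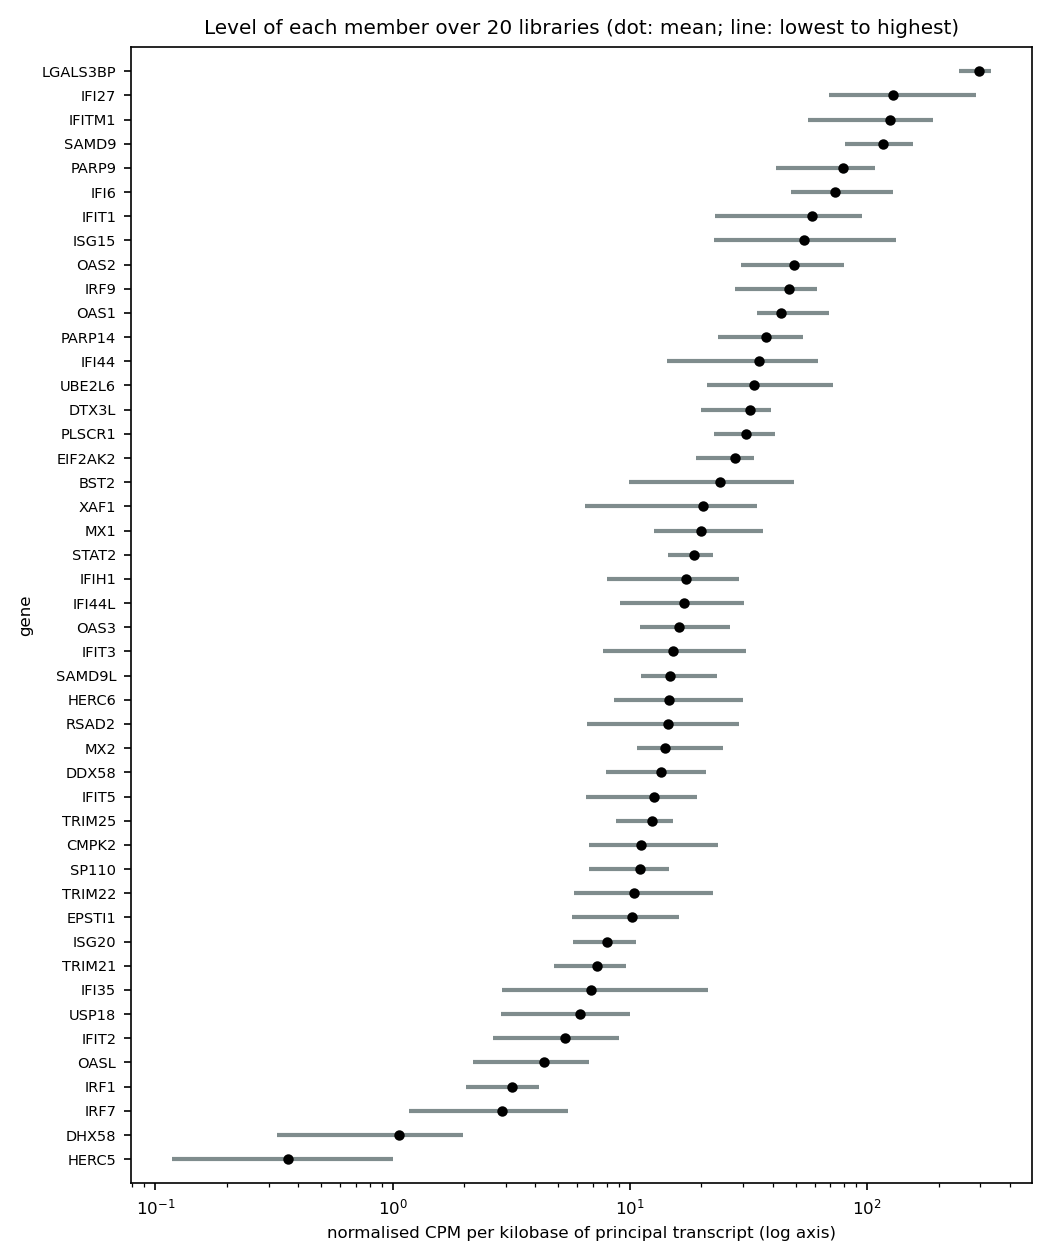
Level of each of the 46 genes in normalised counts per M counts (CPM) per kilobase of principal transcript, on a log axis; dots are means over 20 libraries and lines run from the lowest to the highest library. LGALS3BP is highest at a mean of 297, and HERC5 is lowest at 0.361.

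Among the sensors of viral RNA, IFIH1 averaged 62.2 CPM over the 20 libraries, DDX58 (RIG-I) 59.1 CPM and DHX58 2.78 CPM. CPM values carry no length correction and are compared here only within a gene. The transcription factors of the response were also present: STAT2, the interferon-specific STAT, averaged 60.5 CPM, IRF9 with AL136295.5 85.9 CPM, IRF1 11.4 CPM and IRF7, which drives the later interferon alpha genes, 5.93 CPM. STAT2 was among the steadiest of the 46, with a 1.55-fold range between its lowest and highest library. LGALS3BP had the narrowest range, 1.36-fold, and HERC5 the widest, 8.55-fold. The largest SD of log2 CPM over all libraries were those of HERC5 (0.81), ISG15 (0.71), XAF1 (0.67) and IFI35 (0.65). XAF1, which binds the apoptosis inhibitor XIAP, ran between 23.4 CPM in blood-activating 08 and 124 CPM in spleen-strengthening 08, but shares 2535 exon bases with PRAL on the other strand. The strand setting of the counting is not given in the sources used here, so the reads of such partners may not be told apart.

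Most of the 46 genes varied together between libraries, and the variation was widest inside the blood-activating group. The pattern was noticed after the values were seen, so it is given as a description. Of the 46, 18 had their highest level of all 20 libraries in blood-activating 01 and 17 in blood-activating 04, together 35 of 46 (76.1%), against 14.2% of all tested rows. In blood-activating 08, 27 of 46 (58.7%) had their lowest level, against 5.24% of all tested rows. Inside the group, blood-activating 01 lay above blood-activating 08 in 43 of 46 genes and blood-activating 04 above it in 41 of 46, where the shares of all tested rows were 49.2% and 50.1%.

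The exceptions can be named. Highest in yin-nourishing 07 were IRF9, IFIT1, IFIT2 and IFIT5, and highest in yin-nourishing 05 were LGALS3BP, DTX3L and TRIM25. STAT2 peaked in heat-clearing 02, SP110 in spleen-strengthening 05, XAF1 in spleen-strengthening 08 and ISG20, an RNA exonuclease, in blood-activating 08. ISG20, IRF9 and STAT2 were the 3 genes that were not lower in blood-activating 08 than in blood-activating 01.

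**Figure D2:**
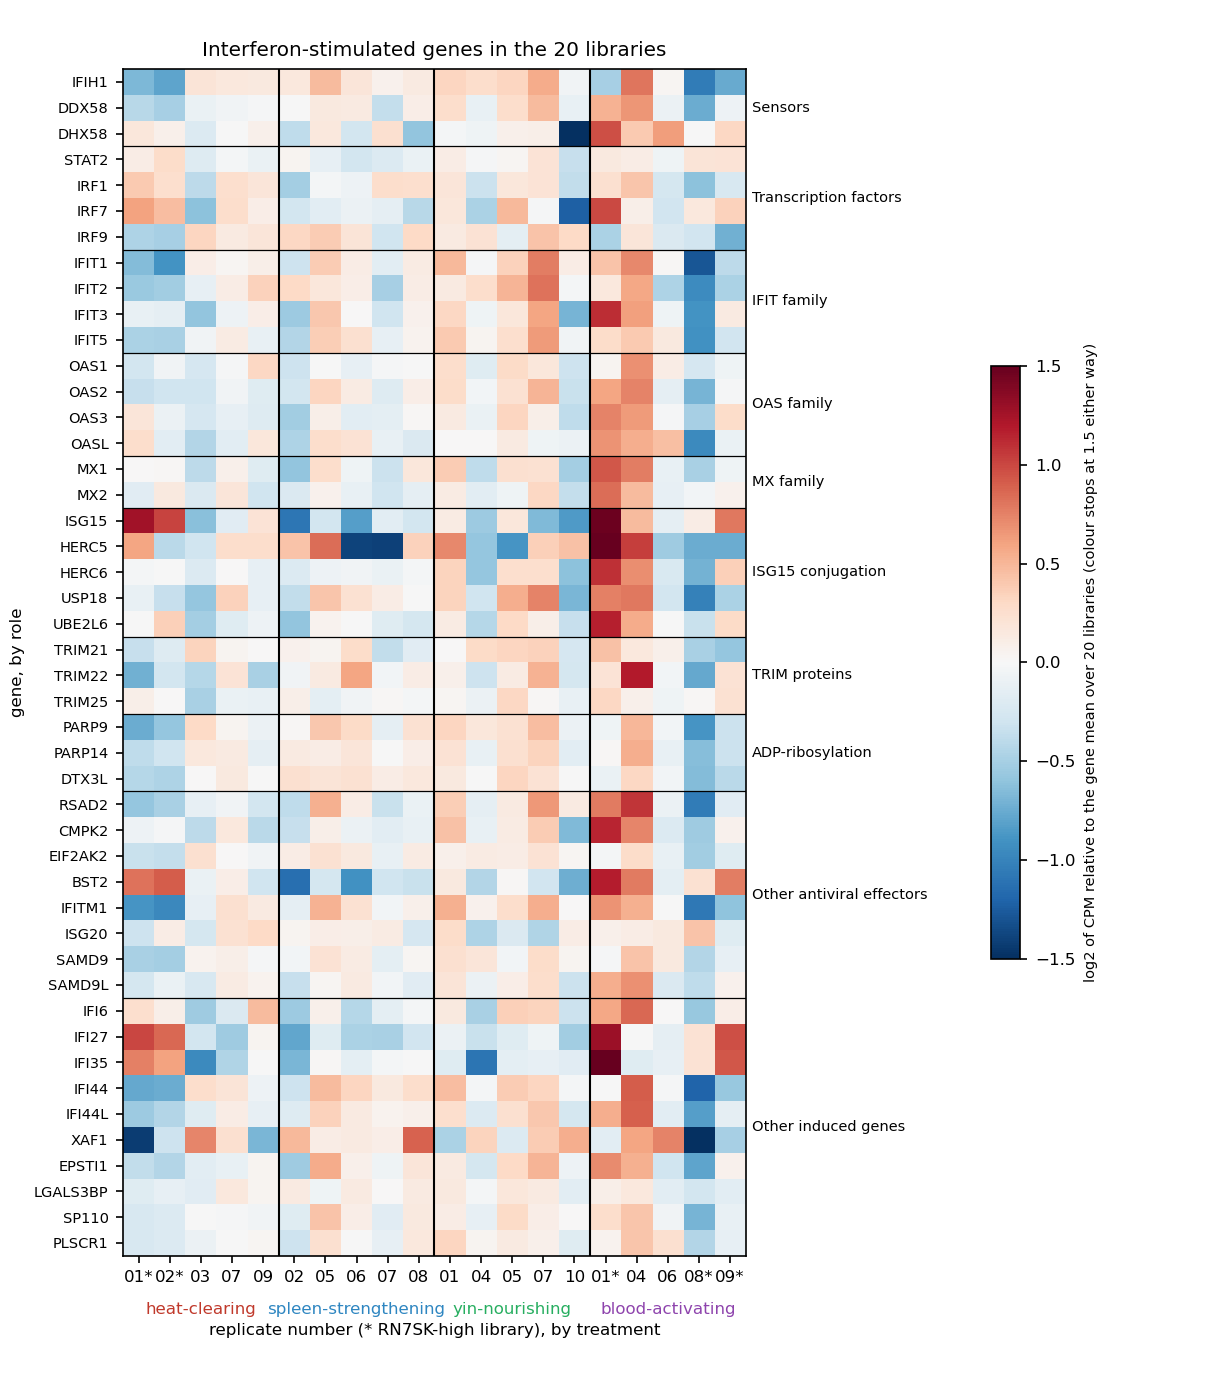
log2 CPM of the 46 genes (rows, by role) in the 20 libraries (columns, by treatment), each relative to the mean of its gene; red is higher, blue is lower, colour stops at 1.5, and asterisks mark the RN7SK-high libraries. Columns 01 and 04 of the blood-activating group are red for most genes and column 08 is blue; 35 of 46 genes are highest in 01 or 04 and 27 of 46 are lowest in 08.

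Families differed in how far they followed this. OAS1, OAS2 and OAS3 make short oligoadenylates that activate RNase L. With OASL, the 4 genes of this family summed to 534, 591, 358, 249 and 381 CPM in blood-activating 01, 04, 06, 08 and 09. The 2 MX GTPases, which trap viral nucleocapsids, summed to 201, 171, 99.6, 88.1 and 107 CPM in the same libraries. The 4 IFIT proteins, which bind foreign RNA ends, summed to 299, 321, 208, 98.5 and 173 CPM. In these 3 families libraries 01 and 04 were the high pair and 08 the low one. The sum of the 4 transcription factors, made up mostly of IRF9 and STAT2, did not follow, at 151, 181, 143, 150.7 and 137 CPM. By gene, 2 of the 4 were highest in 01 or 04. IRF1 was highest of all 20 libraries in blood-activating 04 (14.9 CPM) and lowest in 08 (7.30 CPM). IRF7 was highest in blood-activating 01 (11.2 CPM). By gene, blood-activating 04 over blood-activating 08 was 4.38-fold for RSAD2 (viperin, a radical SAM antiviral enzyme), 4.33-fold for IFI44, 4.01-fold for IFIT1 and 3.60-fold for IFIH1. It was 0.76-fold for IFI35, 0.86-fold for IFI27 and 0.94-fold for STAT2, so these did not share the difference. The medians over the 46 genes were 2.12-fold for blood-activating 01 over 08 and 2.24-fold for 04 over 08.

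The median SD of log2 CPM inside a group was 0.27 in heat-clearing, 0.25 in spleen-strengthening, 0.28 in yin-nourishing and 0.56 in blood-activating. Over all tested rows it was 0.57, 0.49, 0.49 and 0.52 in the same order. The median of the 46 was thus below that of all rows in the first 3 groups and not in the blood-activating group. Rows were not matched for count level, which can change this SD, so the difference is not read as a trait of these genes. The blood-activating group had the largest SD of the 4 in 37 of 46 genes, against 22.5% of all tested rows. Summed over the 46 genes, the level was 4244 ± 437 CPM in heat-clearing, 4683 ± 366 CPM in spleen-strengthening, 4914 ± 551 CPM in yin-nourishing and 4742 ± 1205 CPM in blood-activating (SD, n = 5 each). The group sums overlapped throughout, and the 5 blood-activating sums ran from 3205 to 6301 CPM, a 1.97-fold range.

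Genes with and without the ISRE letters were also counted. Of the 23 genes with a match 18 were highest in blood-activating 01 or 04, of the 15 without a match 10, and of the 8 with no promoter entry 7. The median of blood-activating 04 over 08 was 2.28-fold with a match, 2.11-fold without and 2.77-fold where no promoter was given. These counts are a description with no test.

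Markers of other cell types differed between the same libraries. Tumour epithelial markers (8 genes, led by KRT19) summed to 2131 to 3251 CPM in the 20 libraries, so the labelled carcinoma cells were seen. The 9 acinar markers, genes of digestive enzymes, summed to 0.968 to 818 CPM. They stood at 818 CPM in yin-nourishing 10, 708 CPM in blood-activating 06 and 304 CPM in heat-clearing 03, and at 5.87, 55.7, 708, 32.6 and 44.8 CPM in blood-activating 01, 04, 06, 08 and 09. The 6 lymphoid markers summed to 0 to 1.10 CPM. The 4 markers of plasmacytoid dendritic cells, a main source of interferon alpha in blood, summed to 2.14 to 6.55 CPM, mostly TCF4, while the defining CLEC4C reached at most 0.0847 CPM. In blood-activating 01, 04, 06, 08 and 09 that list was at 4.75, 3.13, 2.52, 2.34 and 4.49 CPM, highest in 01 and lowest in 08. The 8 myeloid markers summed to 51.1 to 87.0 CPM, mostly CD68, with LYZ at up to 15.2 CPM. PTPRC, the common leukocyte gene, reached at most 0.779 CPM. In blood-activating 01, 04, 06, 08 and 09 the 8 fibroblast markers summed to 77.0, 54.1, 31.6, 32.6 and 63.2 CPM and the 6 endothelial markers to 20.1, 15.5, 10.2, 7.90 and 9.51 CPM. Both lists were highest in 01 within the group, and the endothelial one was lowest in 08. The myeloid markers, at 64.2, 56.2, 64.2, 87.0 and 67.2 CPM, were highest in 08. Outside this group, the endothelial and plasmacytoid dendritic sums were highest of all 20 libraries in spleen-strengthening 06, at 24.2 and 6.55 CPM. Its fibroblast sum was 72.6 CPM. The interferon-stimulated genes summed to 4863 CPM there, against 5546 CPM in blood-activating 01, and 0 of them had their highest level there. High sums of these marker lists thus did not always go with the highest levels of the interferon-stimulated genes. None of the 52 markers was at 0 in all 20, and their part in the pattern was not tested. In bulk RNA, fewer cells of a type and less RNA per cell cannot be told apart. The counts are of human genes on hg38, while the model is in mice. Low sums therefore do not show that mouse cells of these types were absent, which was not tested.

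In 5 libraries the small nuclear RNA RN7SK took 5.25 to 7.38% of all counts, against 1.57 to 3.02% in the other 15. These RN7SK-high libraries are heat-clearing 01 and 02 and blood-activating 01, 08 and 09. Counted within each kind of library, the high and low libraries were as follows. Among the 5 RN7SK-high libraries, 41 of 46 genes were highest in blood-activating 01 (24.1% of all tested rows) and 37 of 46 lowest in blood-activating 08 (21.1%). Among the other 15, 28 of 46 were highest in blood-activating 04 (7.48% of all tested rows), 19 lowest in spleen-strengthening 02 (8.78%) and 12 lowest in yin-nourishing 10 (7.85%).

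The RN7SK-high libraries were then set against the others of their group, beside the GC content of the transcripts. Within heat-clearing and within blood-activating samples alike, STAT2, IFI27, IFI35 and IRF7 had every RN7SK-high library above every other one, 4 of 46 against 12.3% of all tested rows. SAMD9, PLSCR1, IFIH1, PARP9, DTX3L and IRF9 had every RN7SK-high library below every other one in both groups, 6 of 46 against 10% of all tested rows. Both counts were near these shares. The median GC content was 58.4% for the 4 above and 43.4% for the 6 below. Of the 21 genes with a GC content of 50% or more, the mean log2 CPM was higher in the RN7SK-high libraries for 14 in heat-clearing and for 8 in blood-activating. Of the 25 genes below 50%, it was higher for 5 in heat-clearing and for 2 in blood-activating. Of the 15173 tested rows with a principal transcript, the same held for 77.1% and 69.9% of those with a GC content of 50% or more, and for 32.4% and 32.7% of those below.

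The median difference, RN7SK-high minus other libraries, was 0.24 log2 in heat-clearing and -0.11 in blood-activating for the GC-rich genes, and -0.40 and -0.49 for the others. Over the rows with a principal transcript these medians were 0.45 and 0.31 log2 for GC-rich rows and -0.20 and -0.19 for the others. ISG15, at 64.7% GC, differed by 1.33 log2 in heat-clearing and 0.62 in blood-activating. IFI35, at 58.5% GC, differed by 1.15 and 1.13 log2 in these groups, and BST2, at 57.3% GC, by 0.95 and 0.41 log2. On the other side, IFIH1, at 43.3% GC, differed by -0.90 log2 in heat-clearing and -1.18 in blood-activating. IFITM1, at 52.5% GC, was at -1.01 and -0.59 log2, so GC content did not order every gene. As transcript GC content, RN7SK share and library are tied together in these samples, their parts cannot be told apart.

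**Figure D3:**
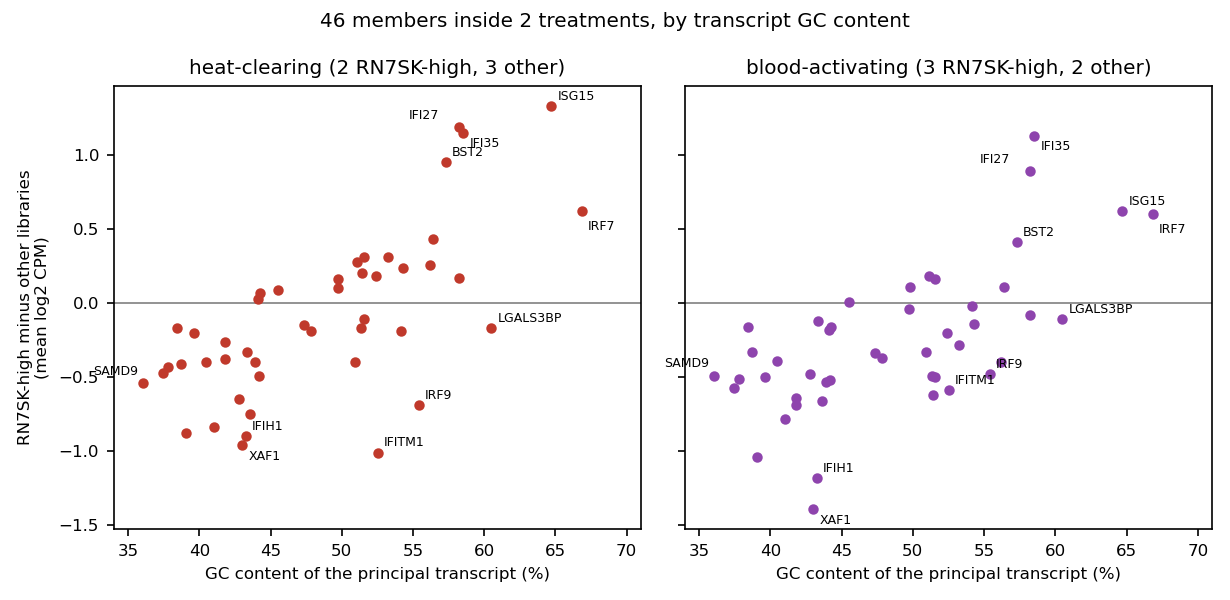
Difference in mean log2 CPM between RN7SK-high and other libraries (vertical axis) against the GC content of the principal transcript in percent (horizontal axis), 1 point per gene, inside the heat-clearing group (left) and the blood-activating group (right). GC-rich ISG15, IFI27, IFI35 and BST2 lie above 0 in both panels, and IFIH1, XAF1 and SAMD9 lie below.

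Treatments were compared with edgeR's quasi-likelihood F-test on counts, all 20 samples in 1 fit, with Benjamini-Hochberg adjustment over the 24789 tested rows and a threshold of 0.05. Across the 4 treatments together, no interferon-stimulated gene passed, and 0 of all rows did (0%). Without the 5 RN7SK-high libraries 0 of 46 passed as well, against 0.00353% of all rows. An unadjusted p under 0.05 was seen for 6 of the 46 (13%), against 15.4% of all tested rows. With each library left out in turn it was seen for 3 to 15 (15 without blood-activating 08, 3 without blood-activating 01 or 09). For such fits, here and below, the share of all rows at this p was not counted. Those counts are therefore not read as particular to the 46 genes. DESeq2 called 3 of the 46 (BST2, IFI27 and ISG15, 4.99% of all tested rows) and limma voom with sample weights 6 (BST2, IFI27, ISG15, DTX3L, IRF9 and IFIH1, 13.4% of all rows). BST2 had the smallest p of the 46 (edgeR adjusted p = 0.172), followed by IFI27 (0.183), ISG15 (0.192), IFI35 (0.261), IRF9 (0.312) and UBE2L6 (0.322).

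BST2 encodes tetherin, which holds budding virus at the cell surface, and lies on chromosome 19 at 17402939 to 17405648 on the minus strand (hg38). Its values were 38.9, 41.6, 20.8, 23.9 and 18.1 CPM in heat-clearing 01, 02, 03, 07 and 09. They were 10.1, 18.5, 11.9, 18.1 and 17.7 CPM in spleen-strengthening 02, 05, 06, 07 and 08, and 24.5, 16.3, 22.6, 18.2 and 13.4 CPM in yin-nourishing 01, 04, 05, 07 and 10. In blood-activating 01, 04, 06, 08 and 09 they were 50.3, 38.2, 20.1, 26.0 and 38.0 CPM. All 5 spleen-strengthening libraries lay below all 5 blood-activating ones, while each other pair of treatments overlapped.

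ISG15, the ubiquitin-like modifier (chromosome 1, 1001138 to 1014540, plus strand), was at 81.6, 68.6, 22.0, 30.3 and 39.3 CPM in heat-clearing libraries and at 16.1, 28.2, 19.2, 30.5 and 28.1 CPM in spleen-strengthening libraries, in the same library order. It was at 37.1, 23.4, 38.4, 21.6 and 18.9 CPM in yin-nourishing libraries and at 94.3, 47.2, 31.0, 36.7 and 58.9 CPM in blood-activating libraries. As for BST2, every spleen-strengthening value was below every blood-activating one, though the nearest, 30.5 and 31.0 CPM, were close. The highest 2 heat-clearing values were those of its RN7SK-high libraries.

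IFI27 (chromosome 14, 94104836 to 94116698, plus strand) was at 171, 156, 70.9, 59.0 and 87.8 CPM in heat-clearing libraries and at 49.9, 75.1, 61.3, 61.2 and 69.9 CPM in spleen-strengthening libraries. It was at 80.1, 67.8, 75.2, 81.5 and 59.5 CPM in yin-nourishing libraries and at 208, 85.2, 77.5, 99.1 and 167 CPM in blood-activating libraries. The 5 highest values of the 20 were all in RN7SK-high libraries. The spleen-strengthening and blood-activating values did not overlap, with 75.1 and 77.5 CPM nearest to each other.

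IFI35, a leucine-zipper protein (chromosome 17, 43006725 to 43014456, plus strand), was at 12.8, 11.5, 3.93, 5.56 and 7.53 CPM in heat-clearing libraries, and at 4.71, 7.66, 6.86, 7.42 and 7.56 CPM in spleen-strengthening libraries. It was at 6.67, 3.56, 6.87, 6.99 and 6.76 CPM in yin-nourishing libraries and at 26.3, 6.68, 6.94, 8.80 and 14.4 CPM in blood-activating libraries. The single library blood-activating 01 stood far above the rest, and all pairs of treatments overlapped.

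**Figure D4:**
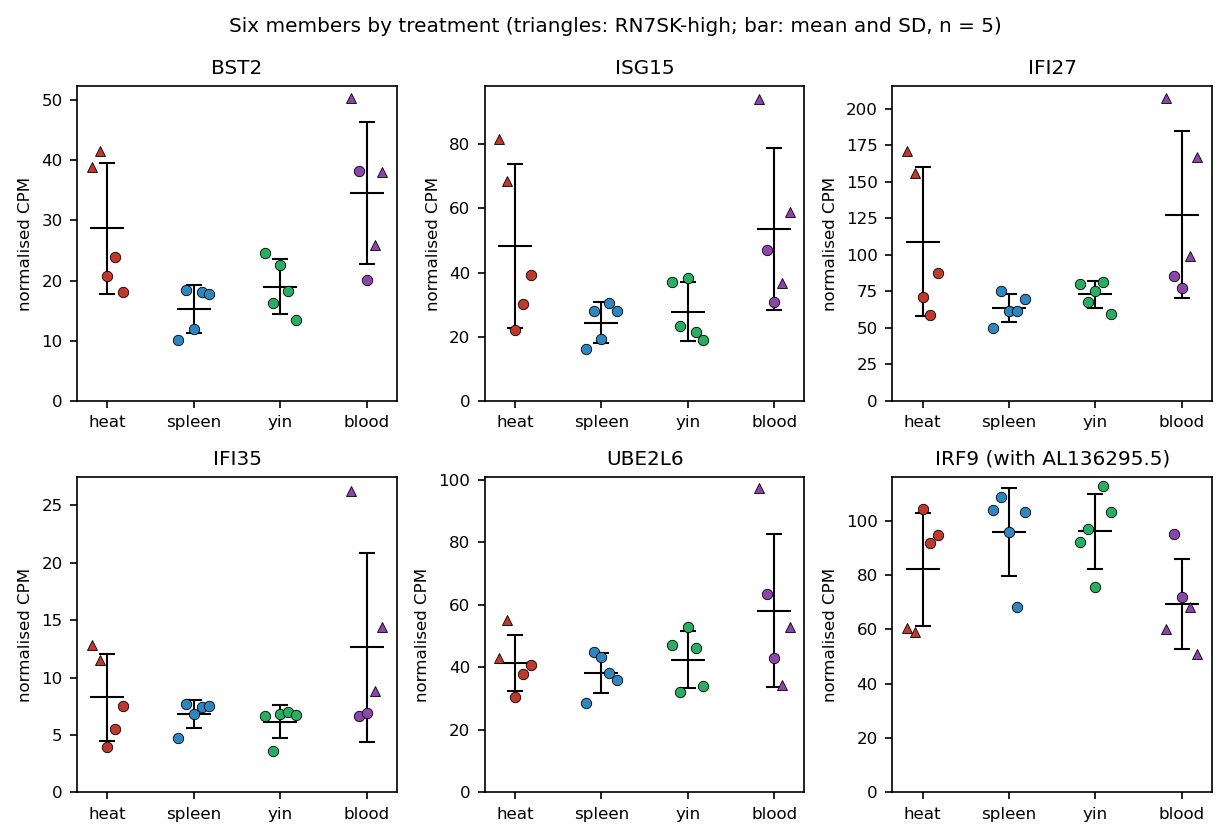
Normalised CPM (vertical axis, from 0) of BST2, ISG15, IFI27, IFI35, UBE2L6 and IRF9 with AL136295.5 in the 4 treatments; each point is a library, triangles are RN7SK-high libraries, and bars give mean and SD (n = 5). For BST2, ISG15 and IFI27 the spleen-strengthening points all lie below the blood-activating points. In these panels the highest point of the heat-clearing group and of the blood-activating group is a triangle. For BST2 and ISG15 a blood-activating circle also lies above a triangle of its group.

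Spleen-strengthening over blood-activating held the largest difference of a single gene, -1.18 log2 for BST2. The median over the 46 genes was -0.13 log2 in this pair and -0.23 in heat-clearing over blood-activating. ISG15 averaged 24.4 ± 6.35 CPM in spleen-strengthening and 53.6 ± 25.1 CPM in blood-activating samples, and BST2 15.3 ± 3.94 and 34.5 ± 11.8 CPM in these groups (SD, n = 5 each). IFI27 averaged 63.5 ± 9.63 CPM in spleen-strengthening and 127 ± 57.2 CPM in blood-activating samples. UBE2L6, the enzyme that passes ISG15 on to its ligase, averaged 38.2 ± 6.44 and 58.1 ± 24.4 CPM. DTX3L, the ubiquitin ligase bound to PARP9, stood the other way, at 209.8 ± 7.79 CPM in spleen-strengthening and 167 ± 42.2 CPM in blood-activating samples.

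On the log2 scale BST2 was at -1.18 (SE 0.264, edgeR adjusted p = 0.0834), ISG15 at -1.13 (SE 0.353, edgeR adjusted p = 0.0985) and IFI27 at -1.0 (SE 0.287, edgeR adjusted p = 0.0933). UBE2L6 was at -0.61 (edgeR adjusted p = 0.127), IRF9 at 0.47 (0.136) and DTX3L at 0.33 (0.198). None of the 46 passed, and 0% of all tested rows did. In all, 11 of 46 (23.9%) had an unadjusted p under 0.05, against 20.5% of all tested rows. Of these 2 were higher (8.29% of all rows) and 9 lower (12.2% of all rows). Groups did not overlap for 3 genes, all lower, against 2.49% of rows for lower and 4.43% for either direction. DESeq2 called 3 of 46 (BST2, IFI27 and ISG15, 7.54% of all rows) and limma voom 7 of 46, 4 lower and 3 higher (19.8% of all rows).

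The median of the 46 log2 differences in this pair was -0.13, against -0.04 over all rows, with 16 higher (47.1% of all rows) and 30 lower. It turned to 0.09 with limma voom and 0.01 without blood-activating 04. By role, all 5 genes of ISG15 conjugation and all 4 OAS genes had a negative difference, and all 3 genes of ADP-ribosylation a positive one. Of the 5 blood-activating libraries 3 are RN7SK-high and of the spleen-strengthening ones 0. Without the 5 RN7SK-high libraries BST2 was at -0.93, ISG15 at -0.67 and IFI27 at -0.35, with edgeR adjusted p = 0.646, 0.759 and 0.748, and 0 of 46 passed (0.0106% of all rows). Without blood-activating 04, edgeR called 5 of 46, IFIH1, DTX3L and IRF9 higher and BST2 and IFI27 lower (7.83% of all rows), and without heat-clearing 03 it called BST2 alone (1.21% of all rows). Counts at an unadjusted p under 0.05 ran from 6 without blood-activating 01 to 18 without blood-activating 08, with no share of all rows counted in these fits.

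Yin-nourishing over blood-activating gave values of the same size for several of these genes, and shares its blood-activating samples with the pair above. BST2 averaged 19.0 ± 4.55 CPM in yin-nourishing and 34.5 ± 11.8 CPM in blood-activating samples, a difference of -0.86 log2 (SE 0.262, edgeR adjusted p = 0.142). IFI35 averaged 6.17 ± 1.46 and 12.6 ± 8.24 CPM in these groups (-1.03 log2, SE 0.349, edgeR adjusted p = 0.146). IFI27 was at -0.81 log2, ISG15 at -0.94 and IRF9 at 0.47, with edgeR adjusted p = 0.160, 0.172 and 0.169. Without the 5 RN7SK-high libraries BST2 was at -0.62, IFI35 at -0.14, IFI27 at -0.16, ISG15 at -0.49 and IRF9 at 0.20 log2. None of 46 passed, as for 0% of all rows. Of the 46, 6 (13%) had an unadjusted p under 0.05, against 18.2% of rows: 1 higher (7.74% of rows) and 5 lower (10.5% of rows). The count was 3 without blood-activating 01 and 13 without blood-activating 04. DESeq2 called 4 of 46 (BST2, IFI27, IFI35 and ISG15, 4.11% of rows) and limma voom 11 of 46, 4 lower and 7 higher (16.9% of rows). The median of the 46 was -0.06 log2, against -0.09 over all rows, with 21 genes higher (43.6% of rows) and 25 lower. It turned to 0.19 with limma voom, 0.11 without blood-activating 04 and 0.07 without blood-activating 01. No gene had groups that did not overlap (4.12% of rows).

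Heat-clearing over blood-activating placed most of the 46 genes lower. TRIM22, an antiviral ubiquitin ligase, averaged 23.8 ± 6.08 CPM in heat-clearing and 36.2 ± 18.5 CPM in blood-activating samples (SD, n = 5 each). OAS3, the OAS enzyme whose long products best activate RNase L, averaged 99.5 ± 12.1 and 129.7 ± 42.4 CPM, and MX2, an inhibitor of retroviral nuclear entry, 40.3 ± 6.23 and 51.2 ± 15.3 CPM. The differences were -0.61 log2 for TRIM22, -0.49 for UBE2L6, -0.38 for OAS3 and -0.35 for MX2, each with an edgeR adjusted p of 1. The median was -0.23 log2, against -0.01 over all rows, with 8 genes higher (48.5% of rows) and 38 lower. Unadjusted p-values under 0.05 were found for 5 of 46 (10.9%), all lower, against 1.86% of all tested rows, of which 0.795% were higher and 1.06% lower. No gene was called by edgeR (0% of rows), by DESeq2 (0.0403% of rows) or by limma voom (0% of rows). No gene had groups that did not overlap (0.488% of rows). The count of 5 depended on single libraries: it was 0 without heat-clearing 03 or 09, 1 without blood-activating 01, 2 without blood-activating 04 and 18 without blood-activating 08. The median was between -0.36 and -0.14 log2 in these 20 fits, and -0.03 with limma voom, against -0.04 over all rows there.

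In heat-clearing over spleen-strengthening, the largest positive differences were those of BST2, ISG15 and IFI27. BST2 averaged 28.7 ± 10.8 CPM in heat-clearing and 15.3 ± 3.94 CPM in spleen-strengthening samples (0.91 log2, SE 0.262, edgeR adjusted p = 0.323). ISG15 was at 0.99 log2 and IFI27 at 0.78, with edgeR adjusted p = 0.326 and 0.329. DTX3L was at -0.31 log2 (edgeR adjusted p = 0.419). The median of the 46 was -0.11 log2, against 0.02 over all rows, with all 4 IFIT genes and all 3 genes of ADP-ribosylation below 0. Of the 46, 4 (8.7%) had an unadjusted p under 0.05, against 11.5% of all rows: 3 higher (8.44% of rows) and 1 lower (3.03% of rows). The count was 1 without heat-clearing 01 and 7 without heat-clearing 03. No gene had groups that did not overlap (1.25% of rows), and 17 were higher (51.8% of rows) and 29 lower. None was called by edgeR (0.00807% of rows), DESeq2 (0.117% of rows) or limma voom (0.0121% of rows). Of the heat-clearing libraries 2 are RN7SK-high, and without the RN7SK-high libraries BST2 was at 0.45, ISG15 at 0.32 and IFI27 at 0.19 log2.

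Heat-clearing over yin-nourishing gave BST2 0.59 log2 and ISG15 0.79, and IFIT5, a binder of RNA with a bare end, -0.46 log2 (edgeR adjusted p = 0.475 for each). IFIT5 averaged 43.5 ± 8.10 CPM in heat-clearing and 59.7 ± 11.6 CPM in yin-nourishing samples. Unadjusted p-values under 0.05 were found for 3 of 46 (6.52%), against 10.3% of all rows: 2 higher (7.07% of rows) and 1 lower (3.2% of rows). The count was 0 without heat-clearing 01, heat-clearing 02 or yin-nourishing 07 and 12 without blood-activating 04 or 08, which belong to neither group; the cause was not tested. The median was -0.18 log2 against 0.05 over all rows, with 10 genes higher (54.4% of rows) and 36 lower. No gene had groups that did not overlap (1.16% of rows). None of 46 was called by edgeR (0% of rows), DESeq2 (0.117% of rows) or limma voom (0% of rows). Without the RN7SK-high libraries BST2 and ISG15 were both at 0.14 log2 and IFIT5 at -0.28.

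Spleen-strengthening over yin-nourishing, the pair with 0 RN7SK-high libraries, gave the narrowest range of differences. They ran from -0.32 to 0.21 log2, with 8 of 46 genes higher (50.3% of rows), 38 lower and a median of -0.11 against 0.00 over all rows. All 4 IFIT, all 4 OAS, both MX and all 5 genes of ISG15 conjugation were on the lower side. An unadjusted p under 0.05 was seen for 0 of 46, against 4.71% of all tested rows, with or without any single library. No gene had groups that did not overlap (0.771% of rows). Neither edgeR (0% of rows), DESeq2 (0.121% of rows) nor limma voom (0.00403% of rows) called any of the 46.

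IRF9 (chromosome 14, 24161053 to 24166565, plus strand), the DNA-binding part of the interferon complex, shows how the table divides a locus. Its row shares 1838 exon bases on the same strand with AL136295.5, a read-through gene model. AL136295.5 held 94.1% of the counts of both rows in heat-clearing 03 and 90.8% in yin-nourishing 10, but 1.44% in yin-nourishing 05. The row IRF9 alone was at 6.27, 19.2, 6.13, 30.3 and 14.3 CPM in heat-clearing libraries, and at 77.9, 66.2, 62.0, 42.2 and 46.6 CPM in spleen-strengthening libraries. It was at 78.9, 82.4, 74.4, 89.8 and 9.54 CPM in yin-nourishing libraries and at 17.5, 31.9, 64.2, 9.92 and 15.2 CPM in blood-activating libraries. So the row alone separated heat-clearing from spleen-strengthening samples with no overlap.

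The sum of both rows varied far less. It was 82.1 ± 20.9 CPM in heat-clearing, 96.0 ± 16.2 CPM in spleen-strengthening, 96.2 ± 13.9 CPM in yin-nourishing and 69.3 ± 16.5 CPM in blood-activating samples (SD, n = 5 each). Over the 20 libraries the row alone spanned 14.6-fold, AL136295.5 alone 90.4-fold and the sum 2.22-fold. Heat-clearing over spleen-strengthening was -1.95 log2 for the row alone (edgeR adjusted p = 0.323) and -0.23 for the sum. Reads of such overlapping models are uncertain, as also for IFITM1, which shares 351 exon bases with IFITM2 on its own strand, and for DTX3L and PARP9, which share 217 with each other on opposite strands.

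**Figure D5:**
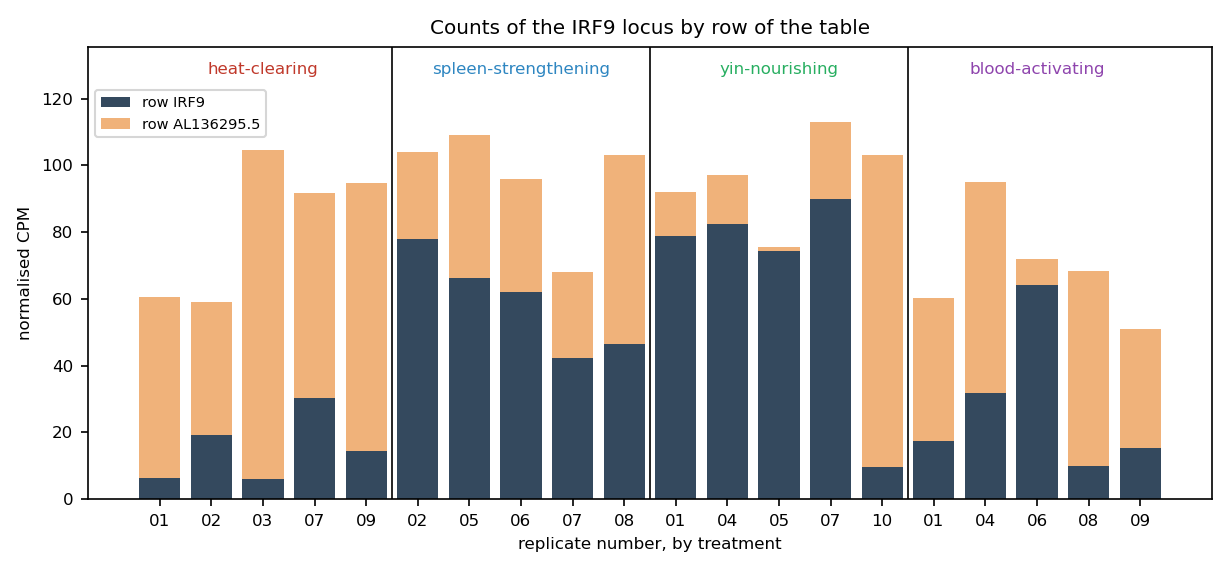
Normalised CPM of the rows IRF9 (dark) and AL136295.5 (light), stacked, in each of the 20 libraries by treatment. The dark part ranges 14.6-fold and the light part 90.4-fold between libraries, while the whole bar ranges 2.22-fold.

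Upstream of these genes, most ligands were near or at 0 counts, IFNE was not, and the receptor chain was present. Of 21 interferon genes listed, 3 passed the filter (IFNA1, IFNE and IFNL1) and 5 had no count in any library. IFNB1, the first interferon of an infected cell, had 55 counts over all 20 libraries together. These are counts of human genes, so they do not show whether mouse cells made interferon. IFNE, the epithelial interferon epsilon, had counts in every library, at 11.3 ± 2.64 CPM in heat-clearing, 12.8 ± 4.28 CPM in spleen-strengthening, 8.94 ± 3.24 CPM in yin-nourishing and 12.3 ± 4.20 CPM in blood-activating samples (SD, n = 5 each). IFNE was highest in blood-activating 04 at 18.9 CPM, with 14.0 CPM in blood-activating 08 and 10.5 CPM in blood-activating 01, so it did not follow the order of the stimulated genes.

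The receptor chains IFNAR1 and IFNAR2 had group means of 179.7 to 199 CPM and 26.1 to 28.97 CPM, and JAK1 of 112 to 119.6 CPM. The sensor DDX60 was at 156, 239, 169.96, 87.3 and 121 CPM in blood-activating 01, 04, 06, 08 and 09, against 145 ± 28.0 CPM in heat-clearing samples (SD, n = 5). It was highest in 04 and lowest in 08 of all 20 libraries. Of the 56 tested pathway genes, 23 (41.1%) were highest in blood-activating 01 or 04, against 14.2% of all rows, and 6 (10.7%) lowest in blood-activating 08, against 5.24%.

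None of the 56 pathway genes passed edgeR's threshold in either direction in any comparison. In spleen-strengthening over blood-activating 15 (26.8%) had an unadjusted p under 0.05, against 20.5% of all rows, and the smallest edgeR adjusted p was 0.0933, for MYD88, the adaptor of Toll-like receptors, at -0.82 log2. MYD88 averaged 36.8 ± 5.65 CPM in spleen-strengthening and 64.9 ± 28.0 CPM in blood-activating samples. DESeq2 called 4 of 56 there (7.14%, against 7.54% of all rows), all lower: IFNLR1, MYD88, NLRC5 and SOCS3. There limma voom called 11 (19.6%, against 19.8% of all rows), 4 higher and 7 lower, so both shares were near those of all rows. In yin-nourishing over blood-activating DESeq2 called 0 (4.11% of all rows) and limma voom 10 (17.9%, against 16.9%), and 8 (14.3%, against 18.2%) had an unadjusted p under 0.05. Among all 4 treatments DESeq2 called 2 (3.57%, against 4.99%), limma voom 7 (12.5%, against 13.4%), and 9 (16.1%, against 15.4%) had an unadjusted p under 0.05. In the remaining 4 pairs neither tool called any, where each called at most 0.121% of all rows. There 7 genes had an unadjusted p under 0.05 in heat-clearing over spleen-strengthening (12.5%, against 11.5% of all rows), 6 in heat-clearing over yin-nourishing (10.7%, against 10.3%), 2 in heat-clearing over blood-activating (3.57%, against 1.86%) and 3 in spleen-strengthening over yin-nourishing (5.36%, against 4.71%).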

How the data were processed

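RNA was measured in 20 libraries by ribosomal-RNA-depleted, directional sequencing, per the labels' protocols. The authors deposited raw counts: a whole number for each gene in each library, without normalisation. The submitters' processing notes name HISAT2, StringTie and hg38, with versions, settings, annotation and strandedness not given in the sources used here. All 46 genes, the gene lists and the rule for naming genes were chosen with earlier results of these data known. AL136295.5 was summed into IRF9 before fitting.

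Scaling was by TMM, and edgeR 4.0.16 (R 4.3.3) gave the main test (robust quasi-likelihood, default filter with a minimum count of 10, 24789 rows). Beside it stood DESeq2 1.42.0 and voom of limma 3.58.1, with quality weights per library. CPM are normalised counts per M counts. Lengths and GC content come from principal transcripts of GENCODE release 29 on hg38. Totals were 81.7 to 135 M counts per library, and 0 pairs of libraries within a group agreed within sampling noise.

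Named are the 6 genes with the smallest p among the 4 treatments, up to 4 per direction in each pair at an unadjusted p under 0.05, the 6 highest per kilobase and the 4 with the largest SD. Other genes, named for exceptions to a pattern, classes or motifs, were chosen after their values were seen. The edgeR test was tested on simulated counts before use. Alternatives were 2 other scalings, 2 other filters, the replicate number as a block, the title letter, terms for or removal of RN7SK-high libraries, separate IRF9 rows, each pair alone, and leaving out each library.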

Additional observations from a re-analysis of the deposited data

Results flagged for a closer look

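Within the groups of 5, the highest or lowest library was compared with the rest for 18 named genes, in 72 groups in all, by the gap to its neighbour over the range (Dixon's 95% limit, 0.71 for 5 samples). In 3 groups the ratio was larger, where chance gives 3.6 at 1 in 20. IFI35 was low in yin-nourishing 04, at 3.56 CPM with its neighbour at 6.67 CPM (ratio 0.908). IFI35 was also low in spleen-strengthening 02, at 4.71 CPM with its neighbour at 6.86 CPM (ratio 0.731). TRIM22 was high in spleen-strengthening 06, at 44.5 CPM with its neighbour at 32.3 CPM (ratio 0.761).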

How the results depend on the processing

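The number of the 46 genes past the threshold was 0 in all 7 edgeR tests and depended on the tool. With limma voom it was 6 among the 4 treatments, 7 in spleen-strengthening over blood-activating and 11 in yin-nourishing over blood-activating. With DESeq2 it was 3, 3 and 4 in the same comparisons. Leaving out each library in turn gave 0 to 1 among the 4 treatments (1, BST2, without heat-clearing 03), 0 to 5 in spleen-strengthening over blood-activating (5 without blood-activating 04) and 0 in the other 5 pairs. The cause was not tested. Of all rows, voom called 3320, 4910 and 4182 and DESeq2 1236, 1870 and 1020 in the 3 comparisons, against 0 with edgeR.

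RLE and upper-quartile scaling, no or a strict filter, the title letter, removal of or a term for the RN7SK-high libraries, separate IRF9 rows and each pair alone left the count at 0. With the replicate number as a block it was 0 too, with BST2 at -1.14 in spleen-strengthening over blood-activating. Same-numbered libraries deviated together in 1 of 12 pairs (correlation over 0.1), so the numbers were not taken as pairs. For the 22 differences of named genes, 0 of 704 alternative values changed sign and 22 passed the threshold. These differences were chosen at an unadjusted p under 0.05 in the main edgeR fit, and the alternatives reuse its libraries. A constant sign was therefore largely set by that choice. The median over the 46 changed sign with limma voom in spleen-strengthening (0.09) and yin-nourishing (0.19) over blood-activating. It also did so without blood-activating 04 in these pairs (0.01 and 0.11), without blood-activating 01 in the second (0.07) and with the block in spleen-strengthening over yin-nourishing (0.06). With RLE, upper-quartile or no scaling, tried after seeing the data, 34 to 36 genes were highest in blood-activating 01 or 04 and 23 to 28 lowest in 08. Depth set few limits here: HERC5 alone fell under 50 raw counts in a library.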
